A study of Mus musculus with 16 samples.

Results

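The interaction of Clpp and Fgf21 loss is the difference between the response of mouse cardiac tissue to loss of CLPP in mice that carry Fgf21 and the same response in mice that do not. It was computed for each gene as (dko − clpp) − (fgf21 − wt), where wt is wild type, fgf21 lacks Fgf21, clpp lacks Clpp and dko lacks both genes. All 16 of the 16 libraries enter it, 4 for each genotype. Messenger RNA was sequenced from heart tissue of mice fed normal chow. Per the labels, Clpp was deleted in the whole body by Cre recombinase under the β-actin promoter and heterozygotes were intercrossed, and dko was bred from mice with floxed Clpp and floxed Fgf21 and the same Cre. The labels do not give the breeding of the mice lacking Fgf21 alone, whether wild-type mice were littermates or carried Cre, nor age, sex or strain. Separate animals for the 4 libraries of a genotype are not stated, so all p-values measure the spread between libraries, which may be in part technical.

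CLPP forms the cutting chamber of ClpXP, which degrades proteins in the mitochondrial matrix, and its loss disturbs mitochondrial ribosomes and translation. Cells with disturbed mitochondria commonly activate the integrated stress response, in which phosphorylation of eIF2α favours translation of ATF4 and related factors, and these raise enzymes of serine, one-carbon and asparagine synthesis, aminoacyl-tRNA synthetases and amino acid transporters. FGF21 is a hormone whose gene is itself a target of ATF4, and it acts on cells through FGF receptors with the co-receptor β-Klotho. Interferon-stimulated genes are a separate group, driven by STAT and IRF factors, and nucleic acids leaking from mitochondria are a known trigger of them.

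On the log2 scale the interaction is the departure of dko from the product of the single folds. A positive value means that the response to loss of CLPP was higher without FGF21. On the linear scale the matching quantity is the dko level minus the sum of the single changes (clpp + fgf21 − wt). The 2 scales ask different things and are given separately. Levels are in CPM, counts scaled to a common library total with TMM factors, listed for libraries 1 to 4 of a genotype, and errors after ± are standard errors for log2 values and departures and SD (n = 4) for levels.

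Libraries held 36260545 to 51820727 counts. Clpp (ENSMUSG00000002660, chr17:56990305-56996188 of GRCm38) read 28.8 to 43.2 CPM in wt, 28.6 to 46.9 in fgf21, 7.61 to 9.68 in clpp and 7.25 to 9.39 in dko. Fgf21 (ENSMUSG00000030827, chr7:45613886-45615490) read 0.0183, 0, 0.0851 and 0 CPM in wt and 0.480, 0.153, 0.680 and 0.440 in clpp, and 0 counts in all 8 libraries of the genotypes without Fgf21, which allows a level of up to 0.0533 to 0.0962 CPM in these libraries (3 counts, counting error only). It stood under the filter and was not tested. Clpp thus went with the labels in every library, while Fgf21 was at 0 in 2 of the 4 wt libraries as well and cannot check their labels. Wild-type libraries fell into 2 kinds. Libraries 2 and 4 (the atrial-rich pair) held the atrial myosin light chain Myl7 at 1729 and 1338 CPM, and libraries 1 and 3 (the atrial-poor pair) at 1.21 and 1.16 CPM. Myl7 ran from 44.9 to 465 CPM in fgf21, from 3.55 to 496 in clpp and from 0.289 to 247 in dko. Wild-type libraries 1 and 3 were also closer to each other than any other pair of the same genotype, with a median chi-square per gene of 0.902 against 1.8 to 55.5, where sampling alone gives 0.455. They were kept as 2 libraries, and their sum as 1 library was an alternative. The median variance within a genotype was 0.103 in wt, 0.0521 in fgf21, 0.0207 in clpp and 0.0444 in dko (log2 scale). Ventricular markers were present in every library. In bulk tissue fewer cells of a type and less RNA per cell cannot be told apart.

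Short promoter stretches are shown first, because the gene lists described here hold 2 different known motifs. Sequences are RefSeq windows of GRCm38.p6, 5′ to 3′ on the strand of the gene, and capitals mark the motif found. In the promoter of Fgf21 (minus strand, chr7:45615585-45615665) and of the response genes Asns (minus strand, chr6:7693210-7693290), Pycr1 (minus strand, chr11:120643807-120643887) and Gars (plus strand, chr6:55037920-55038000), the capitals are the C/EBP-ATF response element, TGATGNAA on either strand, the site bound by ATF4 dimers. Counted from the RefSeq start of each window, the sites lie at -139 to -132 in Fgf21, -23 to -16 in Asns, -103 to -96 in Pycr1 and -30 to -23 in Gars. The interferon gene Ifit1 (plus strand, chr19:34640769-34640849) has 2 matches to the interferon-stimulated response element, GAAANNGAAA on either strand, at -104 to -95 and -85 to -76. Ifit3 (plus strand, chr19:34583372-34583452) and its neighbour Ifit3b (plus strand, chr19:34607768-34607848) share a stretch of identical sequence with 2 matches, at -156 to -147 and -122 to -113 in Ifit3 and at -188 to -179 and -154 to -145 in Ifit3b. Ifit3 and Ifit3b are close copies, and reads may be shared between them. For Asns and Ifit1 the RefSeq start was not matched to the start of a GENCODE transcript, and the Asns site lies inside the gene as GENCODE annotates it.
Fgf21: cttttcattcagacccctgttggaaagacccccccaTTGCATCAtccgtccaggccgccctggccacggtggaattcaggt
Asns: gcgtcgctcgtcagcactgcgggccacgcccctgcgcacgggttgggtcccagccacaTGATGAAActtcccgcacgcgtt
Pycr1: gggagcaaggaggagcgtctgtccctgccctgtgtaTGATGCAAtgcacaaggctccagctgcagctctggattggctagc
Gars: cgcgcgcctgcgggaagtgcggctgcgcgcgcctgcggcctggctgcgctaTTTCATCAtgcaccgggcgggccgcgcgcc
Ifit1: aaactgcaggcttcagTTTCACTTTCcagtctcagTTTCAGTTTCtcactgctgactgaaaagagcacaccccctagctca
Ifit3 and Ifit3b: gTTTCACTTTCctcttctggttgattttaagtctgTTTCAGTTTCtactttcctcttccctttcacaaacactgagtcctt

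No gene passed the test for the interaction. Of 15255 genes tested by edgeR's quasi-likelihood test with Benjamini-Hochberg adjustment at 0.05, 0 were called (0%). An unadjusted p below 0.05 was seen for 299 (1.96%). Without any interaction a share of 0.05 would be expected, so the test may be conservative here. Of those 299, 216 (1.42% of all genes) were positive and 83 (0.544%) negative. The median interaction over all genes was 0.02, and the median half-width of its 95% interval was 0.540 log2 units. Changes under about that size were thus mostly not detectable with 4 libraries a genotype. The interval is for a single gene before adjustment, so larger interactions could go uncalled too. The interval lay within 1 log2 unit of 0 for 10094 genes (66.2%). DESeq2 called 3 genes, Eps8l1 and the gene models Eif4a-ps4 and Gm4294, and limma voom with quality weights called 1, Eps8l1. The count hung on the 2 kinds of wild-type library: with libraries 1 and 3 left out, an alternative chosen after seeing the data that leaves the atrial-rich pair as the wild type, 832 genes were called (326 positive, 506 negative), and with libraries 2 and 4 left out, 0.

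Genes that respond to loss of CLPP at all were chosen by the mean of both responses, (clpp − wt) and (dko − fgf21), a contrast orthogonal to the interaction where all genotypes vary alike. Wild-type libraries varied more than the others (above), so the choice is not fully independent of the interaction, and the medians below are a description. This mean effect called 779 genes (5.11%), 432 higher (2.83%) and 347 lower. All 432 genes called higher were higher in both responses taken singly, and 346 of the 347 called lower were lower in both. Among genes called higher the median response was 0.69 with FGF21 and 0.61 without, and the interaction had a median of -0.09, with 265 negative and 167 positive values. Among genes called lower the responses were -0.71 with FGF21 and -0.45 without, and the interaction had a median of 0.21, with 283 positive and 64 negative values. In both directions the median response was thus nearer to 0 in mice without FGF21. How far these medians depend on either wild-type pair was not tested. The lower genes stood further from the all-gene interaction median of 0.02 than the higher genes, and none of the 779 was called for the interaction. On the linear scale the dko level was below the sum of the single changes for 266 of the 432 higher genes and for 55 of the 347 lower genes. For 488 of the 779 the 95% interval of the interaction lay within 1 log2 unit of 0. With 1 library left out the count of 779 ran from 413 (clpp library 1) to 1559 (wt library 3), and that of 488 from 216 to 850 with the same libraries left out.

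Both responses rest on libraries they do not share, so each can be read against the other. With FGF21 (clpp − wt) 249 genes were called (1.63%), 165 higher (1.08%) and 84 lower. Without FGF21 (dko − fgf21) 136 were called (0.892%), 126 higher (0.826%) and 10 lower. Of the 249 genes, 242 (97.2%) had the same sign without FGF21 and 93 (37.3%) were called there too. Of the 136 genes, 135 (99.3%) had the same sign with FGF21 and the same 93 make up 68.4%. The 165 genes called higher with FGF21 had a median of 1.29 there and 1.20 without it, whereas the 84 called lower had -0.82 and -0.38. The 126 genes called higher without FGF21 had a median of 1.49 there and 1.37 with it, and the 10 called lower -0.77 and -0.62. Whichever response chose the genes, the median in the other one was thus nearer to 0. Choosing genes by a call in a response favours large estimates there, so this ordering does not compare the responses. Over all 15255 genes both responses correlated with a Pearson r of 0.576 and a Spearman rho of 0.61, a description across genes, which are not independent replicates. The count of 249 moved with single libraries, from 114 without clpp library 1 to 955 without wt library 3.

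**Figure D1:**
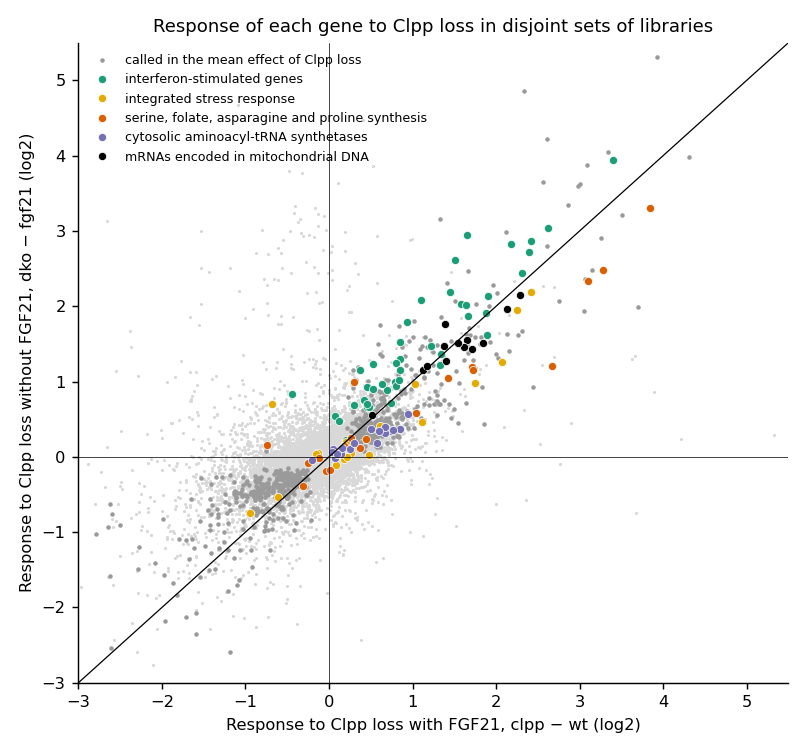
Response to loss of CLPP with FGF21 (clpp − wt, horizontal axis) against the response without FGF21 (dko − fgf21, vertical axis), both in log2 fold change, 1 point per gene. Grey points are the 14885 genes plotted, of 15255 tested, and dark grey points those called for the mean effect. Coloured points are the members of 5 gene lists, and the diagonal marks equal responses. Of the 14885 genes 40 lie outside the axes. Interferon-stimulated genes lie mostly above the diagonal, and the serine and one-carbon enzymes and tRNA synthetases mostly below it.

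Enzymes of serine, folate, asparagine and proline synthesis include Mthfd2, Asns, Phgdh and Aldh1l2, whose levels in dko lay below the sum of the single effects. All 19 listed genes were tested, and 8 were called higher in the mean effect, 7 of the list with FGF21 and 4 without. Their median response was 0.37 with FGF21 and 0.25 without. The interaction was negative in 15 of 19, with a median of -0.21 against 0.02 over all genes, and 1 had an unadjusted p below 0.05.

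Mthfd2, the mitochondrial methylenetetrahydrofolate dehydrogenase (chr6:83305691-83325908), read 1.63, 3.61, 1.69 and 4.98 CPM in wt and 1.99, 0.980, 1.22 and 2.07 in fgf21. It read 45.2, 47.8, 39.7 and 37.0 CPM in clpp and 18.5, 23.4, 6.64 and 13.6 in dko. Every dko library lay below every clpp library and above every library with Clpp. The response was 3.84 ± 0.42 with FGF21 (edgeR adjusted p = 0.000213) and 3.31 ± 0.42 without it (adjusted p = 0.000613). On the log2 scale the interaction was -0.53 ± 0.56 (95% interval -1.72 to 0.66, edgeR unadjusted p = 0.358), the difference between -1.45 for dko against clpp and -0.92 for fgf21 against wt. On the linear scale the sum of the single changes put dko at 41.0 CPM, and the observed mean was 15.5 ± 7.16, a departure of -25.5 ± 4.44 CPM. The product of the single folds put dko at 22.4 CPM. The linear departure was -24.2 to -26.8 CPM with either wild-type pair left out. Wild-type levels of 1.63 to 4.98 CPM could move it by little, so this narrow range is no check of it. The log2 interaction moved from -1.39 without the atrial-rich pair to -0.01 without the atrial-poor pair.

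Asns, asparagine synthetase (chr6:7675169-7693254), showed the same order of levels. It read 1.45, 2.62, 1.45 and 3.93 CPM in wt, 1.65, 1.00, 1.62 and 1.67 in fgf21, 19.0, 23.5, 19.0 and 19.2 in clpp and 8.56, 10.8, 4.47 and 6.28 in dko. Again the dko libraries lay apart from, and between, the clpp libraries and those with Clpp. The response was 3.10 with FGF21 and 2.34 without (adjusted p = 0.000846, edgeR), and the interaction was -0.76 ± 0.44 (edgeR unadjusted p = 0.102), or -1.48 without the atrial-rich and -0.30 without the atrial-poor pair. The linear departure was -11.8 ± 1.87 CPM from an expected 19.3, against 12.7 from the product of folds.

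Phgdh, which catalyses the first step of serine synthesis from glycolysis, read 0.604, 2.08, 0.732 and 2.95 CPM in wt and 0.996, 0.470, 0.977 and 0.896 in fgf21. In clpp it read 14.9, 15.8, 14.9 and 16.3 CPM and in dko 5.57, 7.24, 2.08 and 3.75. Its clpp libraries differed by little, its dko libraries by more, and the highest dko library was below the lowest clpp library. The interaction was -0.81 ± 0.63, or -2.07 without the atrial-rich and -0.16 without the atrial-poor pair, and the linear departure -10.1 ± 1.3 CPM, with a product-expected level of 8.16 and an observed mean of 4.66.

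Aldh1l2, the mitochondrial 10-formyltetrahydrofolate dehydrogenase, had the lowest p for the interaction in the list. It read 3.22, 3.97, 3.76 and 2.34 CPM in wt, 2.06, 4.33, 2.89 and 6.23 in fgf21, 21.8, 28.4, 21.0 and 13.5 in clpp and 12.8, 11.9, 4.78 and 6.28 in dko. All dko libraries lay below all clpp libraries, and wt and fgf21 overlapped. The response was 2.67 with FGF21 (adjusted p = 0.00128, edgeR) and 1.21 without (adjusted p = 0.263, edgeR), and the interaction was -1.46 ± 0.50 (edgeR unadjusted p = 0.0111), not called after adjustment. The linear departure was -12.8 ± 3.77 CPM. Aldh1l1, its cytosolic counterpart, had an interaction of 0.90 ± 0.45. Further synthesis enzymes were chosen after their values were seen. Interactions were -0.38 ± 0.31 for Psat1 of serine synthesis, and -0.56 ± 0.40 and -0.52 ± 0.39 for the proline enzymes Pycr1 and Aldh18a1.

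**Figure D2:**
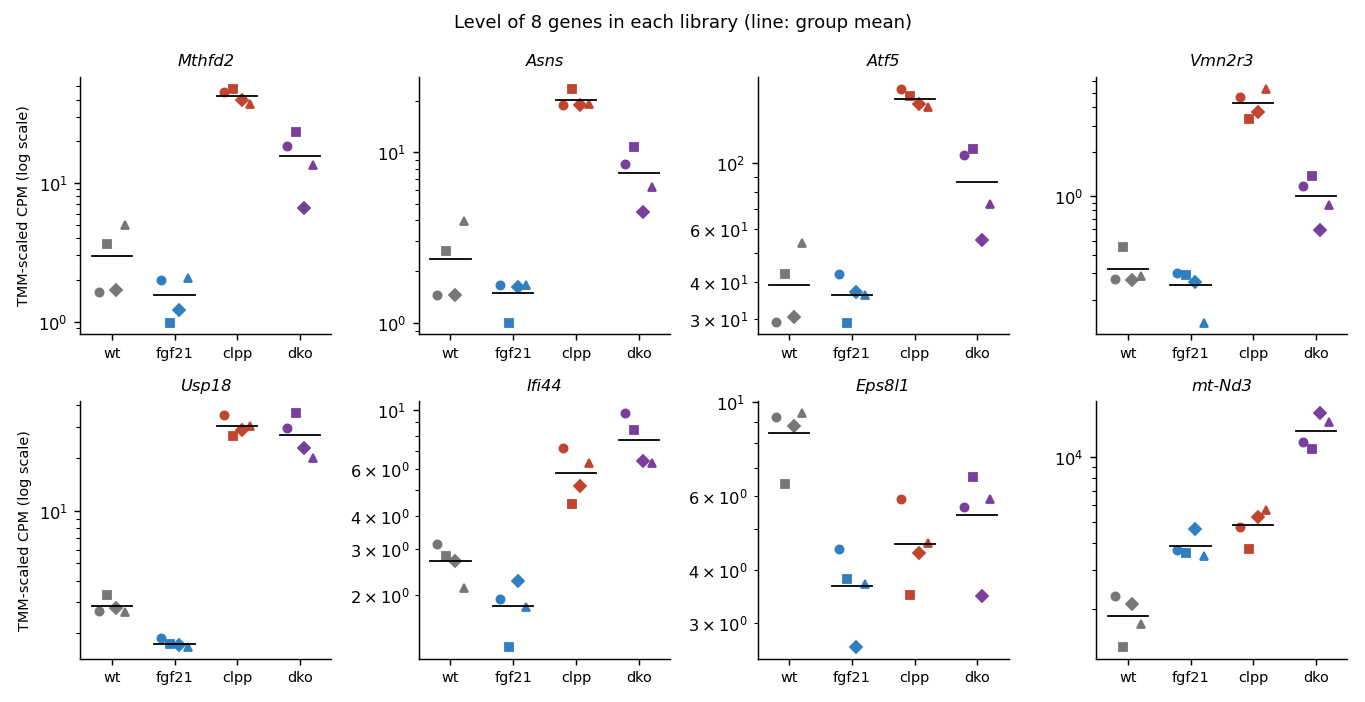
Levels of 8 genes in every library, in CPM scaled by TMM on a logarithmic axis, grouped as wt, fgf21, clpp and dko; marker shape gives the library number and the line the mean of 4 libraries. For Mthfd2, Asns, Atf5 and Vmn2r3 all 4 dko libraries lie below all 4 clpp libraries, for Usp18 and Ifi44 the 2 genotypes overlap, and for mt-Nd3 dko lies above clpp.

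**Figure D3:**
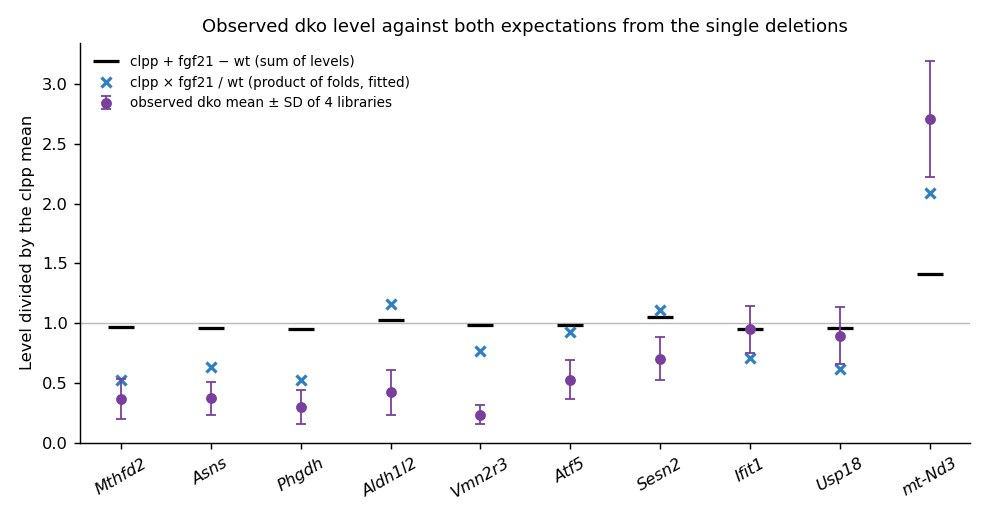
Observed dko level (point, mean ± SD of 4 libraries) beside the level expected from the sum of the single changes (bar mark) and from the product of the single folds (cross), each divided by the clpp mean, for 10 genes. For Mthfd2, Asns, Phgdh, Aldh1l2, Vmn2r3, Atf5 and Sesn2 the observed level is below both expectations, for Ifit1 and Usp18 it is near the sum, and for mt-Nd3 it is above both.

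The list of the integrated stress response, which holds both factors and their targets, had mostly negative interactions. Of 22 listed genes 21 were tested, and 7 were called higher in the mean effect, 4 with FGF21 and 2 without. The interaction was negative in 16 of 21 with a median of -0.19, and 3 members had an unadjusted p below 0.05, all negative. Atf5, a transcription factor of the mitochondrial stress response (chr7:44812256-44816658), read 29.4, 42.4, 30.4 and 54.1 CPM in wt and 42.4, 29.2, 37.0 and 36.2 in fgf21, then 177, 168, 157 and 153 in clpp and 106, 111, 55.2 and 72.8 in dko. All dko libraries lay below all clpp libraries and above all libraries with Clpp. Its response was 2.07 with FGF21 and 1.26 without (adjusted p = 0.00656, edgeR), with an interaction of -0.81 ± 0.31 (edgeR unadjusted p = 0.0184), or -1.22 without the atrial-rich and -0.52 without the atrial-poor pair. The observed mean of 86.5 CPM was -74.6 ± 15.8 away from the sum of the single changes, and the product of folds gave 152.

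Sesn2, a stress-induced inhibitor of mTORC1 signalling, was flat with Clpp, at 2.22 to 2.46 CPM in wt and 2.56 to 2.74 in fgf21. It read 4.89, 5.10, 6.19 and 4.34 CPM in clpp and 3.57, 4.41, 2.36 and 4.14 in dko, ranges that touch only through the highest dko and the lowest clpp library. Its interaction was -0.65 ± 0.24 (edgeR unadjusted p = 0.0136) and its linear departure -1.77 ± 0.602 CPM. Trib3, a pseudokinase induced by ATF4 and CHOP and chosen after its values were seen, had -0.76 ± 0.35. Eif2ak2, the kinase PKR, which senses double-stranded RNA and is itself induced by interferon, had -0.05 ± 0.18. The mRNA of Atf4, named after its values were seen, had -0.02 ± 0.30, and ATF4 is controlled largely at translation. Gdf15, another hormone of mitochondrial stress and also chosen after its values were seen, read 7.47, 7.24, 7.46 and 7.79 CPM in clpp and 2.99, 7.61, 0.434 and 0.930 in dko. In dko Gdf15 thus ranged from below the wild-type level (0.901 to 1.89 CPM) to the clpp level, and its interaction of -0.24 ± 0.87 has a wide interval.

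Cytosolic aminoacyl-tRNA synthetases, which charge tRNAs with amino acids, had smaller folds than the synthesis enzymes named above. Of 21 listed 20 were tested, and 11 were called higher in the mean effect. With FGF21 10 were called higher by edgeR and without it 0, where 10 were higher at an unadjusted p below 0.05, DESeq2 called 2 and voom 7. Median responses were 0.54 with FGF21 and 0.25 without. The interaction was negative in 17 of 20, with a median of -0.20, and 4 members had an unadjusted p below 0.05, all negative. Gars, the glycyl-tRNA synthetase, read 41.9, 32.8, 42.7 and 47.8 CPM in wt, 48.2, 43.4, 44.9 and 37.7 in fgf21, 69.6, 69.4, 65.8 and 71.2 in clpp and 56.2, 57.8, 53.6 and 52.6 in dko. Each dko library was above each library with Clpp and below each clpp library. Its response was 0.74 with FGF21 (adjusted p = 0.00168, edgeR) and 0.34 without (adjusted p = 0.352, edgeR), with an interaction of -0.40 ± 0.16 (edgeR unadjusted p = 0.0198). Sars had an interaction of -0.40 ± 0.17 (edgeR unadjusted p = 0.0339), Iars -0.38 ± 0.20 and Nars -0.27 ± 0.15. A call in 1 response and not in the other is not a difference between them, and the interaction of none of these genes passed the test.

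Amino acid transporters showed no common direction. All 15 were tested, 3 were called higher in the mean effect, 6 interactions were positive and 9 negative, and the median was -0.02. The list score, the mean log2 CPM of the members in each library, had a difference of differences of -0.0955. It was -0.429 without the atrial-rich and 0.238 without the atrial-poor wild-type pair. This score is not the mean of the members' interactions. Slc7a5, the light chain of the large neutral amino acid transporter, read 12.9, 13.2, 13.1 and 11.7 CPM in clpp and 9.17, 10.7, 7.32 and 8.46 in dko, against 2.88 to 6.37 in wt and 2.76 to 4.90 in fgf21. All libraries without Clpp lay above all with it, and the interaction was -0.30 ± 0.32. Slc1a5, a glutamine transporter, had 1.09 ± 0.58, with wild-type levels split into 13.5, 45.8, 14.1 and 72.5 CPM as the atrial markers were. Slc7a1, a transporter of cationic amino acids, had -0.67 ± 0.39, and Slc38a2, a transporter of neutral amino acids, -0.19 ± 0.30.

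Interferon-stimulated genes were higher with loss of CLPP both with and without FGF21, and their interaction had the opposite sign to that of the synthesis genes. Of 45 listed genes 43 were tested, and 39 were called higher in the mean effect, 25 with FGF21 and 36 without. Their median response was 0.85 with FGF21 and 1.25 without. The interaction was positive in 40 of 43 with a median of 0.36, and 9 members had an unadjusted p below 0.05, all positive, beside 1.42% of all genes. The mean log2 CPM of the list was 2.58 to 2.99 in wt, 2.23 to 2.41 in fgf21, 3.66 to 4.13 in clpp and 3.63 to 4.14 in dko. The list thus had overlapping levels in clpp and dko, and the 2 genotypes with Clpp did not overlap, with fgf21 below wt. The median of the members was -0.33 for fgf21 against wt and 0.00 for dko against clpp. With wt libraries 2 and 4 left out the median of the interaction was 0.232 and 1 of 43 members had an unadjusted p below 0.05 (edgeR). Without libraries 1 and 3 the median was 0.49, with 16 such members, 8 of them called, so the count of 9 depends on the wild-type pair.

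Usp18, which removes ISG15 from proteins and dampens interferon receptor signalling (chr6:121245906-121270917), read 2.69, 3.30, 2.77 and 2.64 CPM in wt and 1.88, 1.74, 1.71 and 1.67 in fgf21. It read 34.9, 26.7, 28.6 and 30.2 CPM in clpp and 29.5, 35.8, 22.7 and 19.8 in dko. All fgf21 libraries were below all wt libraries, whereas clpp and dko overlapped. The interaction was 0.54 ± 0.22 (edgeR unadjusted p = 0.0267) from responses of 3.40 and 3.94. The departure from the sum of the single changes was -2.05 ± 3.99 CPM, within its error, and the product of folds put dko at 18.5 CPM against 26.9 observed. Ifit1, which binds RNA lacking host cap methylation, had levels in the same order, with 2.87 to 4.10 CPM in wt, 1.96 to 2.54 in fgf21, 17.3 to 27.0 in clpp and 14.6 to 23.2 in dko. Its interaction was 0.41 ± 0.25 and its linear departure -0.109 ± 3.02 CPM.

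Ifi44, an interferon-induced protein, had the smallest p of the list. It read 3.11, 2.82, 2.69 and 2.13 CPM in wt, 1.94, 1.27, 2.27 and 1.81 in fgf21, 7.18, 4.41, 5.17 and 6.35 in clpp and 9.76, 8.41, 6.42 and 6.32 in dko. Its dko libraries reached above the clpp range and its fgf21 libraries below the wt range. The response was 1.10 with FGF21 and 2.08 without, an interaction of 0.98 ± 0.29 (edgeR unadjusted p = 0.00344). Oas2, an oligoadenylate synthase of the pathway that activates RNase L, read 9.71 to 15 CPM in wt, 5.0 to 9.39 in fgf21, 13.3 to 19.8 in clpp and 15.8 to 18.3 in dko. Its response was 0.37 with FGF21 (adjusted p = 0.261, edgeR) and 1.16 without (adjusted p = 0.00344, edgeR), an interaction of 0.79 ± 0.27, or 0.44 without the atrial-rich and 1.04 without the atrial-poor pair (edgeR adjusted p = 0.0322 in the latter). Rtp4, Apol9b and Ifi206, further interferon-induced genes, had 0.70 ± 0.24, 1.61 ± 0.56 and 0.79 ± 0.59, and Apol9a, a near copy of Apol9b with which it may share reads, 1.37 ± 0.75. The other list members with an unadjusted p below 0.05, chosen after their values were seen, were Irf7 (0.65), Zbp1 (1.29), Oas1a (0.85), Ifi27 (1.10) and Lgals3bp (0.46).

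Promoter motifs were counted among the response genes as a description, with no test. RefSeq windows of 250 bases before the start were matched for 302 of the genes called higher in the mean effect. The interferon-stimulated response element was found in 48 of them (15.9%), against 3.46% of all 27025 genes with a window, 3.37% of tested genes and 1.2% of those called lower. Of the 48 genes 13 are on the interferon list. The median interaction was 0.32 in the 48 genes, 35 of them positive, and -0.15 in the genes called higher that lack the element. On the interferon list itself the median was 0.39 with the element and 0.31 without, and among the genes called lower it was 0.11 in the 3 with it and 0.19 in those without. The C/EBP-ATF response element was in 4.97% of the genes called higher, against 3.91% of all genes and 2.58% of tested genes. Among list members with a window it was in 5 of 20 genes of the integrated stress response (25%), 3 of 13 synthetases (23.1%) and 2 of 15 synthesis enzymes (13.3%). Among the genes called higher the 15 with it had a median interaction of -0.13 and those without it -0.10. A motif is a match of letters in this window and no measure of binding.

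Messenger RNAs of mitochondrial DNA were higher with loss of CLPP both with and without FGF21. All 13 were tested, 12 were called higher in the mean effect, 11 with FGF21 and 10 without, at medians of 1.54 and 1.47. The interaction was positive in 5 and negative in 8 with a median of -0.09, and none had an unadjusted p below 0.05. Its sign followed the wild-type libraries, with a median of 0.321 without libraries 2 and 4 and -0.579 without libraries 1 and 3. As a share of all counts these mRNAs made up 39.13, 25.55, 39.38 and 28.88% in wt and 29.15, 38.52, 37.78 and 38.76% in fgf21. With loss of CLPP they made up 56.62, 57.61, 60.03 and 57.90% in clpp and 58.56, 56.10, 59.66 and 60.76% in dko. The 2 low wild-type shares are those of the atrial-rich libraries. The difference of differences was -2.09 ± 4.40 percentage points (exact two-sided permutation p = 0.7135 over 4900 arrangements), and 3.93 without the atrial-rich pair (exact permutation p = 0.3248). The permutation exchanges the Fgf21 label within each Clpp genotype. Its p is thus for no effect of Fgf21 in either genotype, not for equal effects.

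In mt-Nd3 the dko level stood above both expectations. The mRNA of mt-Nd3, a complex I subunit (chrM:9459-9806), read 2301, 1332, 2102 and 1698 CPM in wt, 3740.3, 3602, 4676 and 3514 in fgf21, 4764, 3782, 5271 and 5681 in clpp and 11647, 10844, 15882 and 14444 in dko. All fgf21 libraries were above all wt libraries, and all dko libraries above all clpp libraries. The libraries without Fgf21 differed by 1.06 with Clpp and 1.44 without it, and the interaction was 0.37 ± 0.28 (edgeR unadjusted p = 0.195), or 0.60 without the atrial-rich and 0.07 without the atrial-poor pair. On the linear scale dko exceeded the sum of the single changes by 6305 ± 1296 CPM, and the product of folds put it at 10185 against 13204 observed. Interactions were -0.28 ± 0.33 for mt-Nd1, another subunit of complex I, and 0.10 ± 0.25 for mt-Co2, a subunit of cytochrome oxidase.

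Nuclear genes for mitochondrial upkeep and fuel use had median interactions from -0.27 to 0.05 by list. Chaperones and proteases of mitochondria were negative in 23 of 23 tested genes of 24 listed, with a median of -0.19, a response of 0.21 with FGF21 and 0.05 without, and edgeR called 0 in the mean effect (5 higher at an unadjusted p below 0.05), DESeq2 called 0, and voom called 1 higher and 2 lower. Lonp1, a matrix protease related in function to ClpXP, had -0.37 ± 0.22, the chaperonin Hspd1 -0.40 ± 0.25, the matrix chaperone Hspa9 -0.40 ± 0.31 and the inner-membrane protease Yme1l1 -0.20 ± 0.18. That common sign was not kept: without the atrial-rich wild-type pair 16 of 23 were positive with a median of 0.0627, and under voom 15 of 23 with 0.0245. Factors of mitochondrial ribosome assembly and mtDNA expression had a median of -0.15 with 5 of 25 positive, which became 0.0216 with 14 positive without the atrial-rich pair and 0.0436 with 14 positive under voom. Among them were the DNA polymerase Polg with -0.23 ± 0.12 and the helicase Twnk with -0.31 ± 0.18. Genes of fatty acid oxidation and PPAR targets had a median of -0.27 with 2 of 38 positive, and edgeR called 0 in the mean effect (6 higher at an unadjusted p below 0.05), DESeq2 called 1 higher, and voom called 6 higher and 3 lower. Ucp3, a mitochondrial carrier raised by fatty acids, had -0.85 ± 0.51, the coactivator Ppargc1b -0.50 ± 0.28 and Cpt1b, which imports fatty acids into muscle mitochondria, -0.24 ± 0.21. Nuclear subunits of complex I had a median of 0.05 with 26 of 36 positive (10 under voom, 17 without the atrial-rich pair) and 2 called lower in the mean effect, Ndufa1 and Ndufc1, with interactions of 0.21 ± 0.19 and 0.14 ± 0.24.

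NRF2 targets and glutathione enzymes, of which 13 of 29 tested genes were called higher in the mean effect, had a median interaction of -0.05. With FGF21 7 were called and without it 2. Gsta2 and Gsta1, glutathione transferases of nearly the same sequence that may share reads, had -0.32 ± 0.61 and -0.67 ± 0.54. Gsta2 read 0.0151 to 0.221 CPM in wt, 0.0995 to 0.235 in fgf21, 2.06 to 3.20 in clpp and 1.63 to 3.88 in dko. Hmox1, haem oxygenase, had 1.92 ± 1.14 with 1 wild-type library at 64.0 CPM, and Gpx1, a glutathione peroxidase, 0.65 ± 0.33.

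Genes of the pathway that FGF21 acts through were mostly not called. Of 24 listed receptors, mitokines and ERK feedback genes 20 were tested, 3 were called higher in the mean effect, and the median interaction was 0.19 with 12 positive, or 0.0304 without the atrial-rich pair. Klb, the β-Klotho co-receptor and chosen after its values were seen, was at most 0.246 CPM in any library and fell below the filter. Dusp4, an ERK-induced phosphatase, read 4.30, 6.89, 3.55 and 4.99 CPM in clpp and 1.71, 3.60, 4.28 and 0.673 in dko, against 0.860 to 1.28 in wt and 0.569 to 1.61 in fgf21. Its dko libraries spread over the whole range between fgf21 and clpp, and the interaction was -0.75 ± 0.61. The immediate early genes Fos and Egr1 had 1.54 ± 0.76 and 0.95 ± 0.54, and Etv5, a transcription factor raised by FGF signalling, -0.35 ± 0.27.

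Genes close to Fgf21 on chromosome 7 can differ with its deletion, and such a difference enters the interaction only where it is unequal with and without Clpp. Of 22 listed neighbours 20 were tested, the median interaction was 0.19 with 13 positive (0.0132 without the atrial-rich pair), and 2 had an unadjusted p below 0.05. Kcnj14, a potassium channel gene chosen after its values were seen, read 0.143 to 0.698 CPM in wt, 23.4 to 48.3 in fgf21, 0.146 to 0.343 in clpp and 21.3 to 39.7 in dko. It was high in all 8 libraries without Fgf21 and low in all 8 with it, and its interaction was 0.26 ± 0.62. Fut2, a fucosyltransferase, and Mamstr, a coactivator of muscle genes, had 1.40 ± 0.62 and 0.60 ± 0.26.

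Beyond the lists, the genes with the smallest p for the interaction are given as values, since none passed adjustment. Eps8l1, an actin regulator related to EPS8 (chr7:4460674-4480487), had the smallest p in edgeR and was called by DESeq2 and voom. It read 9.23, 6.40, 8.78 and 9.42 CPM in wt, 4.48, 3.82, 2.63 and 3.72 in fgf21, 5.90, 3.49, 4.40 and 4.65 in clpp and 5.65, 6.64, 3.48 and 5.90 in dko. Levels were highest in wt, where only the lowest library fell below the highest of dko, and the other genotypes overlapped. The interaction was 1.44 ± 0.30 (edgeR unadjusted p = 0.000198). Nab1, a corepressor of EGR factors, read 8.05, 8.65, 8.43 and 8.80 CPM in clpp, all below 12.2 to 16.5 in wt, 10.8 to 14 in fgf21 and 10.2 to 15.3 in dko. Its response was -0.75 with FGF21 (adjusted p = 0.00433, edgeR) and 0.07 without, an interaction of 0.83 ± 0.18 (edgeR unadjusted p = 0.000245). Without the atrial-poor wild-type pair both genes were called, Eps8l1 at 1.33 (edgeR adjusted p = 0.0379) and Nab1 at 0.82 (edgeR adjusted p = 0.0348).

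Vmn2r3, annotated as a vomeronasal receptor (chr3:64257215-64289709), had the smallest p of the negative genes. It read 0.272 to 0.453 CPM in wt and 0.139 to 0.302 in fgf21, then 4.64, 3.34, 3.69 and 5.31 in clpp and 1.17, 1.37, 0.590 and 0.866 in dko. The dko libraries lay apart from clpp and from the libraries with Clpp, and the interaction was -1.71 ± 0.42 (edgeR unadjusted p = 0.000919). Its linear departure was -3.17 ± 0.484 CPM. Agap1, an ARF GTPase-activating protein, read 34.3, 36.2, 33.4 and 35.0 CPM in clpp and 20.9 to 24.3, 21.1 to 25 and 20.6 to 28.9 in wt, fgf21 and dko. Its response was 0.61 with FGF21 (adjusted p = 0.00442, edgeR) and 0.13 without (adjusted p = 0.848, edgeR). The clpp libraries of Agap1 thus lay above those of the other 3 genotypes, as those of Nab1 lay below, and its interaction was -0.48 ± 0.14 (edgeR unadjusted p = 0.00415).

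Among the other positive genes by p, Vps33b of vesicle fusion had 0.89 ± 0.24, the adhesion molecule L1cam 1.10 ± 0.32, the melanocyte enzyme Dct 1.09 ± 0.34, the actin oxidase Mical2 0.54 ± 0.17, the neuronal gene Stmn2 1.25 ± 0.40 and the receptor Csf2ra 1.11 ± 0.36. Among the other negative genes, the sugar phosphate carrier Slc37a2 had -0.62 ± 0.19, Erich1 -0.66 ± 0.19, Baiap2l1 -0.58 ± 0.18, the sterol carrier Gramd1b -0.58 ± 0.18, the pantothenate kinase Pank1 -0.80 ± 0.27, Cyb5r1 -0.42 ± 0.15 and Stum -0.81 ± 0.30. Among the genes with the largest called falls in the mean effect, interactions of both signs were seen, from 1.16 for endothelin 3 (Edn3) to -0.54 for the ketone enzyme Bdh1. The complement gene C7 had -0.13, Sec14l5 0.60, Phkg1 -0.04, Rasl10a 0.12 and Pi16 0.53.

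Under all alternatives run, the median interaction stayed negative for the synthesis enzymes (-0.317 to -0.136), the integrated stress response (-0.214 to -0.0753) and the synthetases (-0.353 to -0.116), and positive for the interferon list (0.207 to 0.49). Such a sign was not particular to these lists. The list score of fatty acid oxidation and PPAR targets had a difference of differences of -0.355. It was -0.175 without the atrial-rich and -0.536 without the atrial-poor wild-type pair. The remaining pathway lists held few called members. Genes of the endoplasmic reticulum unfolded protein response had a median interaction of 0.10 with 13 of 20 positive, with Atf6 at -0.32, Xbp1 at 0.32 and Dnajb9 at -0.21. Clock genes had -0.07 with 7 of 19 positive, and the repressors Cry1 and Nr1d2 had 0.87 ± 0.38 and -0.46 ± 0.21. Fetal and stress genes of the ventricle had 0.30 with 12 of 18 positive. Their list score, which is not the mean of these interactions, had a difference of differences of -0.214. Without the atrial-rich pair their median was -0.023 with 8 positive, and the score gave -0.821. Nppb, the precursor of B-type natriuretic peptide, had 1.49 ± 0.64 with 1 wild-type library at 349.6 CPM. Matrix and fibrosis genes had 0.21 with 28 of 31 positive, with Tgfb2 at 0.73 and Sparc at 0.27, but the median was -0.361 without the atrial-rich wild-type pair and -0.0122 under voom. Without that pair the medians were also -0.0577 for the unfolded protein response and 0.0226 for the clock.

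**Figure D4:**
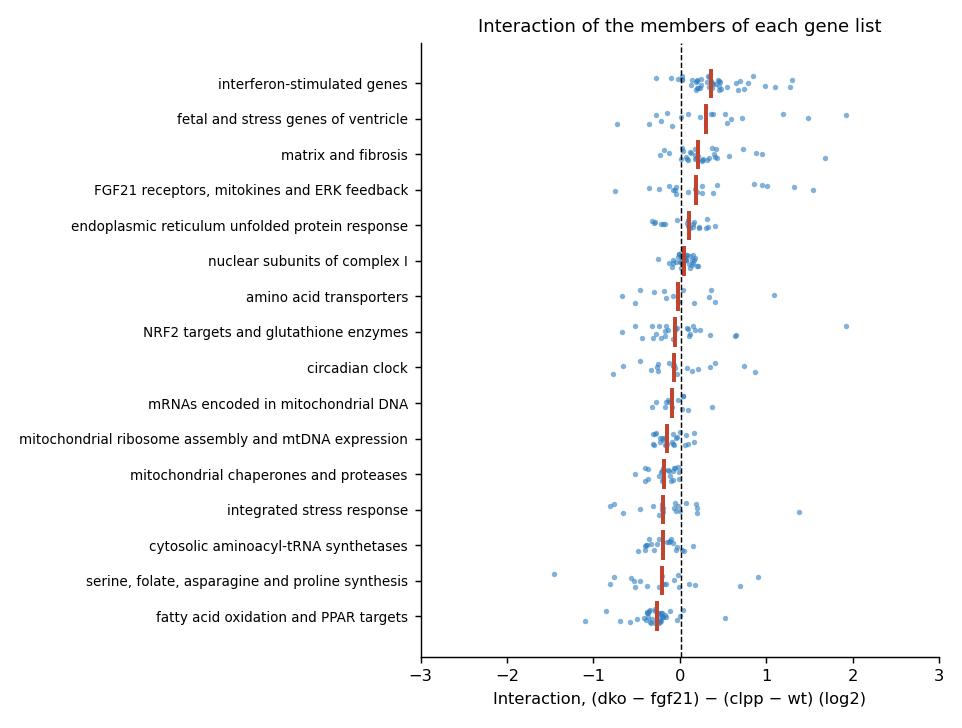
Interaction in log2 units of the tested members of 16 gene lists, 1 point per gene, lists sorted by their median (red line); the dashed line is the median of all 15255 genes, 0.02. Interferon-stimulated genes have the highest median of the lists shown, 0.36, and fatty acid oxidation the lowest, -0.27.

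Markers of other cell types also had interactions apart from the all-gene median. The median was 2.76 for red blood cell markers (8 of 8 positive, 8 with an unadjusted p below 0.05), 1.62 for the 4 neutrophil markers tested, 1.32 for adipocyte markers (6 of 7 positive), 0.57 for Schwann cell and neuron markers (9 of 9), 0.45 for lymphocyte markers (10 of 11), 0.35 for smooth muscle, 0.34 for fibroblast markers (11 of 12), 0.20 for endothelial and 0.15 for macrophage markers (13 of 14). It was 0.09 for brown adipocyte markers, 0.03 for atrial, -0.01 for proliferation, -0.10 for ventricular and -0.40 for skeletal muscle markers. Summed red cell markers were 2499 to 7314 CPM in wt, 1280 to 3055 in fgf21, 908 to 1823 in clpp and 637, 749, 1862 and 10975 in dko, and without dko library 4 the red cell median was 0.723. Summed atrial markers were 438 to 11551 CPM in wt, 690 to 3946 in fgf21, 505 to 4539 in clpp and 504 to 2111 in dko. Without the atrial-rich wild-type pair the medians became -5.65 for atrial, -0.482 for fibroblast and -0.311 for macrophage markers, the interferon median fell from 0.36 to 0.232 with 36 of 43 positive, and the Mthfd2 interaction went from -0.53 to -1.39. The list score, the mean log2 CPM per library, is another measure and not the mean of the members' interactions. Its difference of differences had the opposite sign to the median for atrial (-2.77), adipocyte (-0.0382) and proliferation markers (0.0849). Without the atrial-rich pair that score difference was -2.45 for adipocyte, -0.309 for Schwann cell and neuron and -0.134 for smooth muscle markers. Without the atrial-poor pair it was 2.37, 1.38 and 0.643. For red cell (1.84), neutrophil (0.767), lymphocyte (0.274) and endothelial markers (0.0396) it stayed positive without the atrial-rich pair. The part of tissue makeup in the gene values was not tested beyond these alternatives.

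**Figure D5:**
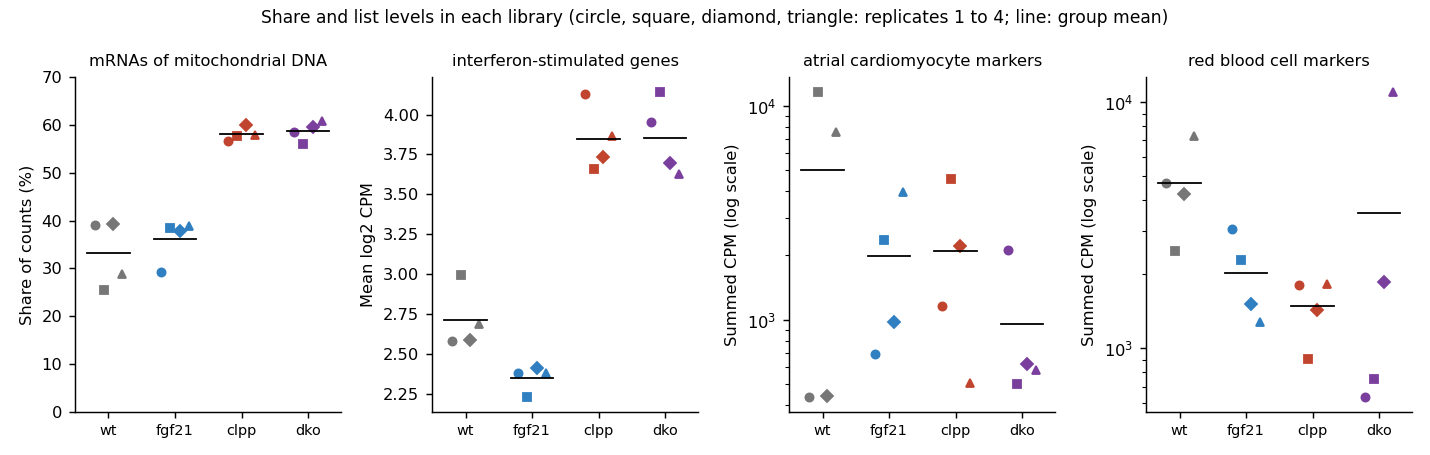
Values of each library by genotype: the share of counts from mRNAs of mitochondrial DNA (%), the mean log2 CPM of interferon-stimulated genes, and the summed CPM of atrial and of red cell markers on logarithmic axes. The wild-type libraries split into 2 pairs by atrial markers and by mitochondrial share, and dko library 4 stands above the other dko libraries in red cell markers.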

How the data were processed

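RNA was extracted from cardiac tissue and sequenced as stranded, poly(A)-selected libraries on an Illumina NovaSeq, per the labels' protocols. The authors deposited a table of whole-number counts per gene for all 16 libraries; per the submitters' processing notes, the tools were R 4.0.3, DESeq2 1.30.1, edgeR 3.32.1, kallisto 0.46.1 and fastp 0.21.0 and the build was GRCm38.p6. kallisto shares reads between similar transcripts. How its estimates became whole numbers and whether strand was used were not given in these sources. Reads of near-identical or overlapping genes can therefore be split between them.

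The counts were tested as deposited. edgeR 4.0.16 in R 4.3.3 kept 15255 of 36499 entries (filterByExpr, count minimum 10, total minimum 15), scaled by TMM (factors 0.674 to 1.83), and fitted 1 robust quasi-likelihood model to all 16 libraries with genotype as the only term (12 residual degrees of freedom, biological coefficient of variation 0.249). Tests were two-sided with Benjamini-Hochberg adjustment over all genes tested and a threshold of 0.05. DESeq2 1.42.0 and limma 3.58.1 were alternatives. Intervals are at 95%. The mitochondrial share was tested by an exact permutation of the Fgf21 label within each Clpp genotype. Linear departures have a standard error and no test. The steps were tested on simulated data.

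The samples, the 31 gene lists (14 of cell markers) and the tests were chosen with earlier results of these data known. Named genes are Clpp and Fgf21, up to 12 positive and 12 negative genes with the smallest interaction p and a mean of at least 1 CPM, 2 members of each list by interaction p and, for pathways, 2 by the mean effect, and the 10 largest called changes of the mean effect in each direction. A few genes that this rule selects are not reported here. The 10 genes plotted against their expected dko level were chosen after their values were seen. Coordinates are from GENCODE on GRCm38, where 550 identifiers had no entry. Of 14885 tested symbols 11249 matched a RefSeq promoter window.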

Additional observations from a re-analysis of the deposited data

Results flagged for a closer look

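A library was set apart where its distance to the nearest of the 4 in its genotype was a large part of the whole range (Dixon's test at 95%). That held for 42 of 490 groups tested (8.57%), 14 in wt, 12 in fgf21, 8 in clpp and 8 in dko, where chance gives about 1 in 20. No difference between the responses with and without FGF21 passed its test. Levels are in CPM scaled by TMM.

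In wt library 4 the values apart were Slc7a5 6.371, Ndufa11 244.6, Hmox1 64.01, Egr1 23.41, Nppb 349.6, Fcgr1 2.458, Cidea 46.81, C7 9.792 and Edn3 4.937. In wt library 2 they were Vmn2r3 0.4526, Pecam1 150.4, Eng 251.9, Cd8a 0.5733 and Sec14l5 14.45. These are the atrial-rich wild-type libraries.

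Values apart in fgf21 library 1 were Cyb5r1 24.75, mt-Co2 37520 and the share of mitochondrial mRNAs, 29.15%. In fgf21 library 2 they were Aldh1l1 3.312, Asns 0.9996, Hmox1 10.72 and Cspg4 10.21. In fgf21 library 4 they were Slc37a2 3.503, Hspa9 385.1, Fos 2.567, Egr1 12.7 and Cd8a 0.3383.

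In clpp library 1 the values apart were Eif2ak2 13.33, Ifit1 27.02, Ppargc1b 3.017 and Gsta1 11.36. In clpp library 2 they were Asns 23.54, Fabp3 1463 and Cd8a 0.5867, and in clpp library 4 Sec14l5 1.005.

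In dko library 1 they were Bmp10 8.533, Pam 564.7 and Retn 0.5333. In dko library 3 they were Slc38a2 196.9 and Cpt1b 665.9. In dko library 4 they were Eng 155.1 and the red cell genes Slc4a1 4.425 and Hbb-bt 772.1.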

How the results depend on the processing

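The count of genes called for the interaction stayed at 0 except under DESeq2 (3), voom with quality weights (1), an atrial marker covariate (1, Ahsg) and, chosen after seeing the data, without the atrial-poor wild-type pair (832). Calls with FGF21 were 11929 by library size alone (11834 lower), 841 with DESeq2, 2780 with voom, 159 without the atrial-rich wild-type pair, 562 with wt libraries 1 and 3 summed, 1015 with the atrial covariate and, chosen after seeing the data, 5060 without the atrial-poor pair and 140 with a red cell covariate. Leaving out 1 library gave 114 (clpp 1) to 955 (wt 3). Calls without FGF21 were 10859 by library size alone (10763 lower), 209 with DESeq2, 369 with voom and 241 without the atrial-rich pair, and 94 (fgf21 1) to 160 (wt 2) with 1 library left out. Mean-effect calls were 13309 by library size alone (13186 lower), 1528 with DESeq2, 3244 with voom, 1321 with wt libraries 1 and 3 summed, 4845 without the atrial-poor pair and 466 with the red cell covariate, and 413 (clpp 1) to 1559 (wt 3) with 1 library left out. Response genes whose interaction interval lay within 1 log2 unit (488) numbered 188 for a margin of 1.5-fold, 8866 by library size alone, 981 with DESeq2, 2689 with voom, 2223 without the atrial-poor pair and 228 with the red cell covariate, and 216 to 850 with 1 library left out. Library size alone shifts the median of all genes by -0.792 with FGF21, -0.7 without and -0.747 in the mean effect. Under it the mean effect, higher in the reported scaling, was -0.1727 for Nars, -0.1183 for Slc38a2, -0.2694 for Hspa9, -0.4772 for Yme1l1, -0.3819 for Tfb1m, -0.3606 for Ppargc1b, -0.4286 for Cpt1b, -0.004726 for Etv5, -0.3505 for Atf6, -0.2214 for Dnajb9 and -0.1503 for Nr1d2. Linear departures by library size alone were -20.85 CPM for Mthfd2, -9.36 for Asns, -7.856 for Phgdh, -57.84 for Atf5, -2.55 for Vmn2r3 and 3554.054 for mt-Nd3, all in the same direction. The mitochondrial share had a difference of differences of 3.931 percentage points without the atrial-rich pair and -4.392 to 0.4709 with 1 library left out. Of 3593 interaction values of named genes under alternatives that were never called, 109 changed sign. The cause of these changes was not tested. With 4 libraries a genotype, interactions under about 0.540 log2 units were mostly not detectable, and after adjustment larger ones could go uncalled too.

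Replicate numbers did not pair the libraries: deviations of the 24 pairs of libraries with the same number correlated between -0.228 and 0.364, 4 of them over 0.1. With the replicate block 0 genes were called for the interaction, 146 with FGF21, 109 without, 515 in the mean effect, and 315 response genes had an interval within 1 log2 unit.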
